A study of Mus musculus with 11 samples.

Results

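The deposited RNA-seq table of mouse striatal cells holds 1767 genes, and 102 of them carry a gene type other than protein-coding. These 102 genes are the non-protein-coding genes described here. They were taken by the Gene Type column alone, and no gene had to be left out for a symbol starting with Zfp, Slc, H2-, Oas or Ifi. By that column 59 are miscRNA, 23 are of unknown type, 17 are pseudogenes and 3 are small nucleolar RNAs (snoRNAs).

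NF-Y is a transcription factor made of an A, a B and a C subunit that binds the CCAAT sequence in promoters. Wild-type male mice of the C57BL/6 strain, 6 weeks old, received an AAV vector in the striatum of both hemispheres. The control vector carried EmGFP with the non-targeting NT2 miR RNAi (6 samples, numbered 3, 5, 7, 9, 21 and 23), and the knockdown vector carried EmGFP with miR RNAi against NF-YA and NF-YC (5 samples, numbered 4, 6, 8, 10 and 22). Both used the CAG promoter, which is active in many cell types, and 3 weeks later EmGFP-positive cells were sorted from the dissociated striatum for RNA-seq. All samples thus carry a vector, EmGFP and a miR cassette, and uninjected cells are not part of the comparison. The design text counts 6 control and 5 knockdown mice, as many as there are samples, but the labels do not tie each sample to 1 mouse. If samples shared an animal, p-values would measure spread that is partly technical.

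The table lists only genes for which the study's own test gave a p-value under 0.05. The counts and p-values below therefore describe genes already chosen for a difference between the groups, and a gene outside the table was not analysed here. Counts were divided by 1 factor per sample (normalized counts), and a gene was called when its adjusted p in edgeR's quasi-likelihood test over all 1767 genes was under 0.05. Knockdown values are given throughout in the order of samples 4, 6, 8, 10 and 22, and control values as lowest, highest and median. The counts summed over the listed genes ran from 1581757 to 3141324 per sample, which is a part of each library and not its depth. Normalized counts are not divided by transcript length, so they compare samples for 1 gene and not genes with each other.

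Non-coding genes give RNAs that are not translated. Long non-coding RNAs (lncRNAs) include transcripts that act in the nucleus on nearby genes, antisense transcripts, and host transcripts whose introns are cut out to give snoRNAs or microRNAs. C/D box snoRNAs guide methylation of ribosomal RNA and H/ACA snoRNAs guide pseudouridylation, while pseudogenes are copies of coding genes that may still be transcribed. In the brain many lncRNAs are made in particular neuronal or glial cell types.

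The gene type of the table was checked against RefSeq (GRCm38.p6), in which 82 of the 102 genes were found by gene identifier. RefSeq classes 55 of these as lncRNA, 12 as transcribed pseudogenes, 3 as other pseudogenes, 3 as snoRNAs and 1 as a microRNA gene. The other 8, among them Btbd19, 2310006M14Rik (now Mroh3) and LOC623078 (now Gm8108), are protein-coding in RefSeq, so the label is not borne out for them. A further 4 genes are non-coding in RefSeq but typed protein-coding by GENCODE M21, so their label is in doubt as well. The type "miscRNA" held mostly lncRNAs, and it also held the microRNA gene Mir680-2.

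The small RNAs Snord89 and miR-680 are shown first because they are short enough to print in full. GENCODE gives Snord89 110 bases, against 94 in the table and in RefSeq. The mature miR-680 has 21 bases, while the counts are for the 110-base Mir680-2 gene. Capitals mark the letters of the C box (TGATGA, searched in the first 20 bases) and of the D box (CTGA, searched in the last 15 bases) of the C/D box snoRNA Snord89, read from GENCODE M21 on GRCm38 at chr1:39548745-39548854 (minus strand). In the microRNA, from RefSeq, capitals mark the seed (bases 2 to 8), and its locus on GRCm38.p6 is chrX:144297790-144297810 on the plus strand.
Snord89: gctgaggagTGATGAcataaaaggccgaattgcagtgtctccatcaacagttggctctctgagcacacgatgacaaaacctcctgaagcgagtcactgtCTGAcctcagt
mmu-miR-680: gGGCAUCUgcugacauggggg

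The promoters of 4 called genes are shown because they hold the letters of the NF-Y site, CCAAT or ATTGG on the other strand, which are in capitals. Snhg3 (chr4:132353637-132353936, minus strand) and G530011O06Rik (chrX:169978868-169979167, minus strand) were higher in knockdown cells, and AI854517 (chr7:79515185-79515484, plus strand) and D930028M14Rik (chr7:25154819-25155118, plus strand) were lower. Each runs from 250 bases before to 50 after the start site in RefSeq GRCm38.p6.
Snhg3: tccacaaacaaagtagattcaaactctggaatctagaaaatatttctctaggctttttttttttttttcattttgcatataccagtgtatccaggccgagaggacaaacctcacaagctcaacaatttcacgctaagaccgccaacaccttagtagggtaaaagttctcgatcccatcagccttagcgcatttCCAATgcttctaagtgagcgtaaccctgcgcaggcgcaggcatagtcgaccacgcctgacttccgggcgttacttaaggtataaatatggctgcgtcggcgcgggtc
G530011O06Rik: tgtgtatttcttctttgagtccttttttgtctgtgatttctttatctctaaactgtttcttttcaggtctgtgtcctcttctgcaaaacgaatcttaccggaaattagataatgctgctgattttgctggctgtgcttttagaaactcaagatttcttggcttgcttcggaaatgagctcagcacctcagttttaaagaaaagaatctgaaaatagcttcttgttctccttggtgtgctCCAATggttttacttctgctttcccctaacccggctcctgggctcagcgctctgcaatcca
AI854517: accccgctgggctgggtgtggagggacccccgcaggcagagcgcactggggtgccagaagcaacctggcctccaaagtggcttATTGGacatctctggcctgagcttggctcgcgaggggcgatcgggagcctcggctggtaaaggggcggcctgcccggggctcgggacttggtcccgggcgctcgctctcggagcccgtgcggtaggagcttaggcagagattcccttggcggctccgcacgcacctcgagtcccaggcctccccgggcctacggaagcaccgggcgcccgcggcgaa
D930028M14Rik: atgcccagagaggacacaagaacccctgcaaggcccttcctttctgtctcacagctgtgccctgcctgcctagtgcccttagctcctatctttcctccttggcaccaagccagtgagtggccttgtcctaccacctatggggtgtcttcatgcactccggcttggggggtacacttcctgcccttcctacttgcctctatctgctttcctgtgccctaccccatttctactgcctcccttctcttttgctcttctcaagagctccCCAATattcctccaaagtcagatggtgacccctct
The first base of the letters lay 57 bases before the start in Snhg3, 11 before it in G530011O06Rik and 167 before it in AI854517. In D930028M14Rik they lay after the start. RefSeq also gives G530011O06Rik a promoter on chromosome Y, not shown, in which CCAAT lies after the start.

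Promoters with these letters were found among the higher and the lower genes alike. RefSeq gave 59 promoters for 48 of the 102 genes, and 21 of them (35.6%) held CCAAT or ATTGG, beside 37.4% of all 32851 promoters of the same length. Several promoters of 1 gene can overlap, as those of 9530028C05 do, so the shares are also given by gene. The letters stood in at least 1 promoter of 8 of 19 higher genes (42.1%), 8 of 17 lower genes (47.1%) and 1 of 12 genes not called. By promoter it was 12 of 27 (44.4%) for the higher and 8 of 20 (40.0%) for the lower genes, so the order of the groups turns with the unit counted. For the listed protein-coding genes the shares by gene were 36.2% (higher) and 51.2% (lower), beside 41.1% of all genes with a promoter. A match is a description of the letters in this window, and binding was not measured here.

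In the comparison of knockdown with control cells, 40 of the 102 non-coding genes were called higher (39.2%, beside 32.2% of all listed genes) and 33 were called lower (32.4%, beside 47.3% of all listed genes). The remaining 29 were not called. The median log2 fold change was 0.39 over the 102 genes (54 positive and 48 negative) and -0.27 over all 1767 (744 and 1023). Over the 55 lncRNAs of RefSeq the median was -0.37 (27 positive and 28 negative). No non-coding gene lay between -0.37 (Tug1) and 0.30 (A430057M04Rik), because genes of small difference are not listed. The medians of non-coding genes thus follow a near-even split of signs and are not a typical shift. Scaling by TMM on the table moved the log2 fold changes of all genes by a median of 0.13. The split became 46 higher and 20 lower among the 102 non-coding genes and 689 and 377 among all 1767 listed genes. The share called lower was then nearly the same in both, so the difference in lower calls depends on the scaling. No non-coding gene changed sign under TMM. Leaving out control 5 or 7 or any single knockdown sample lowered the number called higher to between 21 and 26, while over all listed genes it fell from 569 to between 355 and 397. Without knockdown 6 or knockdown 10 the number called lower was 13 or 21, beside 493 or 589 of all listed genes.

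Each type held genes of both directions. Of the 59 miscRNA genes 23 were higher (39.0%) and 18 lower (30.5%), and of the 23 of unknown type 8 (34.8%) and 9 (39.1%). Of the 17 pseudogenes 8 were higher (47.1%) and 5 lower (29.4%), and of the 3 snoRNAs 1 and 1. Beside them, 32.2% of all listed genes were higher and 47.3% lower. The 102 genes lay on all autosomes and on chromosome X. Chromosome 7 held 10 of them and 136 of the 1767 listed genes, the highest number in both.

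The non-coding genes were counted at lower depth than the coding ones. For 77 of 102 (75.5%) the highest count in any sample was under 200, beside 362 of 1665 coding genes (21.7%), and for 24 (23.5%) it was under 20, beside 3.84% of coding genes. In the 25 non-coding genes with a highest count of 200 or more, 14 were called higher and 9 lower, while among the 1303 coding genes of that depth 355 were higher and 716 lower. Between 20 and 200 counts 19 of 53 non-coding genes were higher and 17 lower, beside 139 and 77 of 298 coding genes. Under 20 counts 7 were higher and 7 lower, beside 35 and 10 of 64 coding genes.

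**Figure D1:**
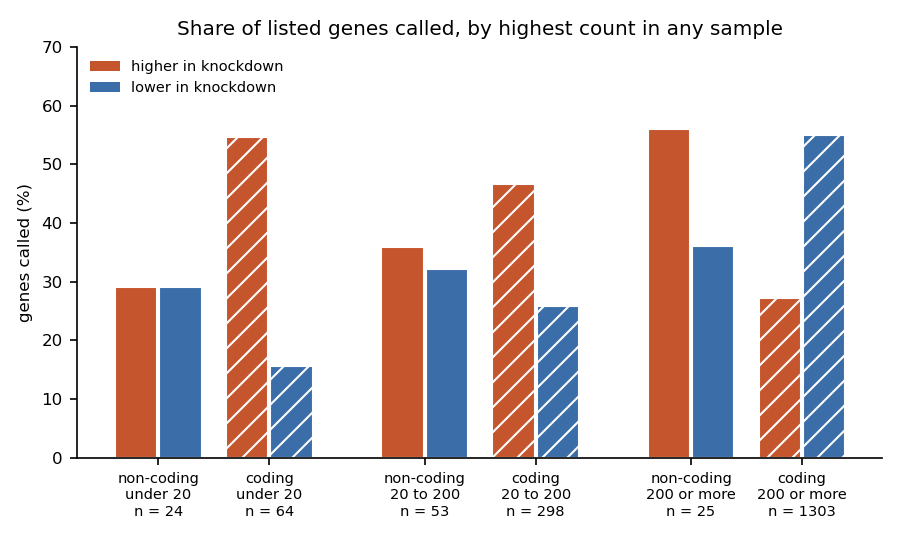
Percentage of listed genes called higher (orange) or lower (blue) in knockdown cells, by the highest count in any sample, for non-coding (plain) and protein-coding genes (hatched). In the deepest class 56.0% of 25 non-coding and 27.2% of 1303 coding genes were called higher, and in the shallowest class 29.2% of 24 and 54.7% of 64.

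**Figure D2:**
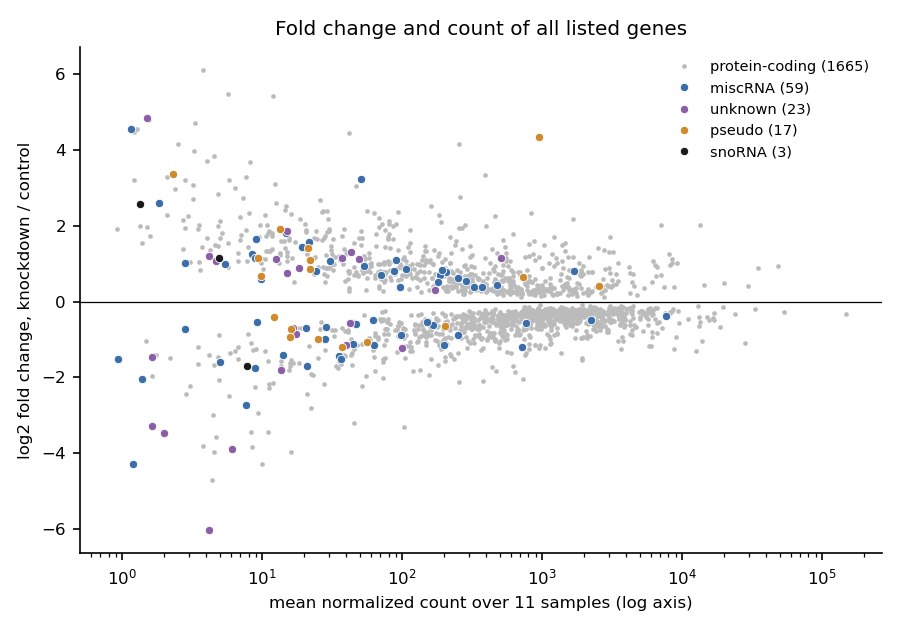
Log2 fold change (knockdown over control) against the mean normalized count over 11 samples (log axis) for the 1665 protein-coding genes (grey) and the 102 non-coding genes by deposited type. The non-coding genes lie on both sides of 0 (54 positive and 48 negative, median 0.39) with a gap around 0. They spread most widely at low counts, with Gm8828 at 4.34 as an exception.

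The lower gene with the highest counts was Tug1, a lncRNA of broad expression (chr11:3539797-3548811, mm9, as are all positions from the table). Its normalized counts were 7245 to 10176 (median 8270.0) in the control samples and 7334, 5905, 6494, 5372 and 7956 in the knockdown samples. The groups overlapped only in that knockdown 4 and 22 reached the range of the controls. Tug1 fell by 0.37 on the log2 scale (SE 0.13, adjusted p = 0.0284). The call was lost without knockdown 6, 8 or 10 (adjusted p = 0.0582, 0.0506 and 0.0576) and under TMM (log2 fold change -0.24, adjusted p = 0.103).

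Sox2ot, the long transcript that spans the Sox2 gene of neural stem and glial cells, had 1932 to 3465 (median 2576) in the control samples and 1864, 1723, 1698, 2107 and 1743 in the knockdown samples. All 5 knockdown values were below the control median. It fell by 0.50 on the log2 scale (SE 0.14, adjusted p = 0.0197). For 2610017I09Rik (Pantr1 in RefSeq), whose start lies 943 bases from that of the neural transcription factor gene Pou3f3 on the opposite strand, the values were 334 to 1374 (median 1141) in the control samples and 209, 259.6, 463, 557 and 621 in the knockdown samples. Control 3 and control 23 were low and lay among the knockdown samples. It fell by 1.19 on the log2 scale (SE 0.38, adjusted p = 0.0242). For the lncRNA 4933431E20Rik the values were 460.3 to 1174 (median 942) in the control samples and 573, 559, 649, 699 and 553 in the knockdown samples, with control 3 lowest of all samples. It fell by 0.56 on the log2 scale (SE 0.19, adjusted p = 0.0274), a call lost without control 21 or knockdown 6 (adjusted p = 0.0506 and 0.0523) and under TMM (0.0523).

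Of the higher genes with the highest counts, G530011O06Rik is a lncRNA that the table places on chromosome X, antisense within Mid1 on GRCm38. RefSeq also gives it a promoter on chromosome Y, and reads of the X and Y loci were not told apart here. Its values were 890.0 to 2037 (median 1078) in the control samples and 2032, 2625, 1757, 3038 and 1471 in the knockdown samples. Control 23 alone among the controls lay within the knockdown range. The gene rose by 0.80 on the log2 scale (SE 0.23, adjusted p = 0.0201). Pisd-ps1, a transcribed pseudogene of the phosphatidylserine decarboxylase gene Pisd, had 1677 to 2916 (median 2054) in the control samples and 2829, 2578, 2939, 3480.4 and 2938 in the knockdown samples. Both groups shared the range set by control 21 and control 23, but under TMM they did not overlap. It rose by 0.41 on the log2 scale (SE 0.15, adjusted p = 0.0331), and the call was lost without any 1 of controls 5, 7 and 9 or knockdown 8, 10 and 22 (adjusted p = 0.0518 to 0.0691). Reads of a pseudogene and its parent can be split by the counting, so such values are uncertain.

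Gm6548, a transcribed pseudogene, had 322 to 884 (median 594) in the control samples and 869, 1186, 1060.4, 681 and 725 in the knockdown samples. Controls 3 and 23 lay within the knockdown range. It rose by 0.64 on the log2 scale (SE 0.25, adjusted p = 0.0385), a call lost without any 1 of controls 5, 7, 9 and 21 or knockdown 4, 6 and 8 (adjusted p = 0.0509 to 0.0855). Gm8828, a pseudogene on chromosome 6, varied widely within each group, with 0 to 322 (median 3.57) in the control samples and 1233, 325, 6479.7, 1801 and 5.89 in the knockdown samples. Knockdown 8 was far above all others and knockdown 22 was among the low controls. It rose by 4.34 on the log2 scale (SE 1.49, adjusted p = 0.0288), but without knockdown 8 the log2 fold change was 3.10 (adjusted p = 0.0742), and without control 3 or control 23 it was 5.14 or 5.04. With a block by sample number (samples 3 to 10 against 21 to 23) adjusted p was 0.0726. The table gives this gene a span of 2515965 bases, against 5633 in RefSeq, so reads of other genes in that interval may have been counted to it. This was not tested.

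**Figure D3:**
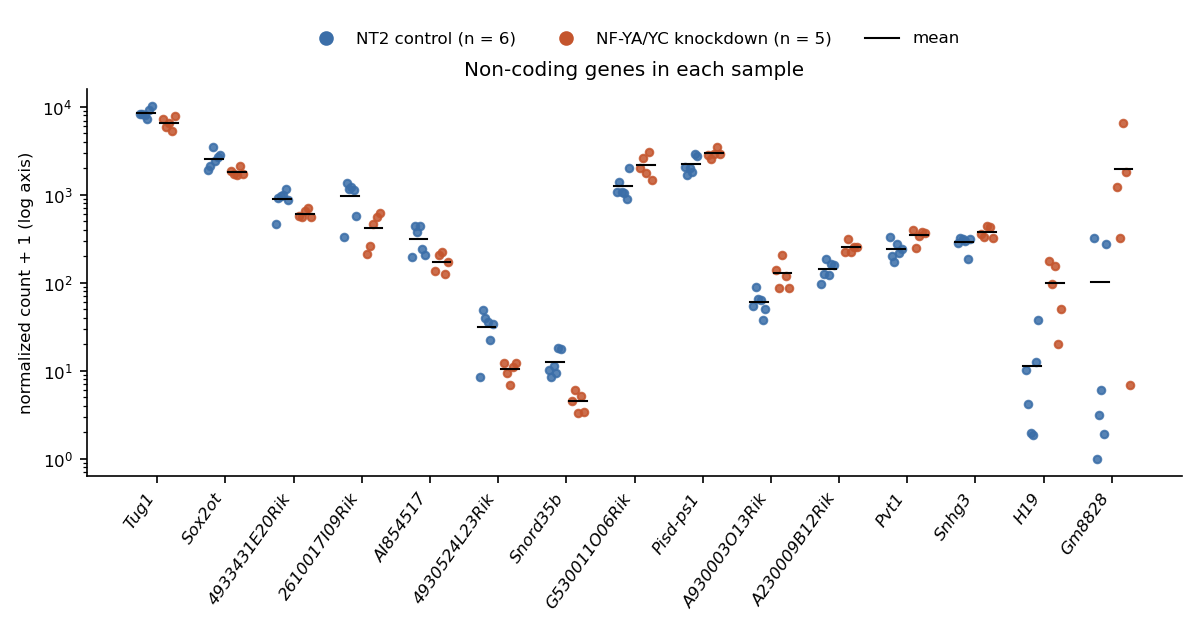
Normalized counts plus 1 (log axis) of 15 non-coding genes in each of the 6 control (blue) and 5 knockdown samples (orange), with group means as lines. The genes from Tug1 to Snord35b were lower and those from G530011O06Rik to Gm8828 higher in knockdown cells. Snord35b, A230009B12Rik and Snhg3 have groups that do not overlap.

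Several listed genes were known non-coding RNAs. H19, the imprinted lncRNA that is expressed from the maternal allele and silenced in most tissues after birth, had 0.842 to 36.8 (median 6.15) in the control samples and 176, 95.5, 155, 19.3 and 49.1 in the knockdown samples. Control 23 alone exceeded the lowest knockdown sample. H19 rose by 3.22 on the log2 scale (SE 0.81, adjusted p = 0.0146), and without control 23 the log2 fold change was 4.28. The control counts were few (1 to 38 reads), while 23 to 148.5 reads were counted in knockdown samples. Of 11 imprinted non-coding RNAs on the list used here, H19 was the one in the table.

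Pvt1, a lncRNA beside Myc (chr15:61869542-62208396), had 169.9 to 330.3 (median 226) in the control samples and 396, 247, 342, 377 and 364 in the knockdown samples. Controls 3 and 9 lay within the knockdown range, and knockdown 6 within that of the controls. Pvt1 rose by 0.54 on the log2 scale (SE 0.19, adjusted p = 0.0293), a call lost without any 1 of controls 5, 7 and 21 or knockdown 4, 10 and 22 (adjusted p = 0.0503 to 0.0564). Snhg3, a host transcript of snoRNAs (chr4:131907848-131909601), had 187 to 321 (median 307) in the control samples and 354, 333, 438, 426 and 323 in the knockdown samples. Every knockdown sample was above every control, as for 6 of the 102 genes in that direction (beside 6.9% of all listed genes). Under TMM the groups of A930003O13Rik, Gm4876, E230016M11Rik and Pisd-ps1 did not overlap either. The share of all listed genes under TMM was not counted. Snhg3 rose by 0.39 on the log2 scale (SE 0.16, adjusted p = 0.0438). This call was lost on leaving out any sample except knockdown 22 (adjusted p = 0.0508 to 0.0982) and under the block by sample number (0.0530). AI854517, which RefSeq names Mir9-3hg as the host of a copy of the neural microRNA miR-9, had 197 to 444 (median 309) in the control samples and 135, 208, 224, 125 and 171 in the knockdown samples. Knockdown 6 and 8 lay among the lower controls. It fell by 0.88 on the log2 scale (SE 0.27, adjusted p = 0.0224).

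Of the 4 small RNA genes, Snord35b and Snord89 were called. Snord35b, a C/D box snoRNA, had 7.52 to 16.9 (median 9.68) in the control samples and 3.55, 4.97, 2.34, 4.2 and 2.36 in the knockdown samples. Every knockdown sample was below every control, as for 4 of the 102 genes in that direction (beside 6.11% of all listed genes). It fell by 1.69 on the log2 scale (SE 0.40, adjusted p = 0.0123), and the exact permutation test gave p = 0.0022, the smallest that 6 against 5 samples allow (two-sided).

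Snord89 was counted with 2 reads over the controls, all in control 21, and 13 over the knockdown samples, in which it was found in each. The ratio of normalized counts was 7.55, with a 95% exact interval of 1.71 to 69.0 that covers counting error only. edgeR gave adjusted p = 0.0293, and without control 7, knockdown 4 or knockdown 6 this was 0.0519, 0.0551 or 0.0570. DESeq2 did not call it (0.0651). In the table it lies within LOC100503777 on the same strand, which had 127 to 357 (median 166) in the control samples and 264, 328, 431, 257 and 261 in the knockdown samples (log2 fold change 0.63, SE 0.27, adjusted p = 0.0493). This call was lost under the block by sample number (0.0556) and on leaving out any sample except control 3 (0.0517 to 0.127). The H/ACA snoRNA Snora7a, inside Rpl32, had 0.889 to 9.08 (median 2.58) in the control samples and 8.28, 4.97, 11.7, 4.2 and 5.5 in the knockdown samples and was not called (log2 fold change 1.16, SE 0.57, adjusted p = 0.0697). Without control 3, its highest control, adjusted p was 0.0173. Mir680-2 had 0 to 3.37 (median 2.54) in the control samples and 2.96, 3.98, 3.51, 4.2 and 4.32 in the knockdown samples and was not called (log2 fold change 1.01, SE 0.64, adjusted p = 0.137).

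Other lower genes of low p-value had fewer counts. LOC623078 had 33.3 to 67.7 (median 52.5) in the control samples and 28.4, 21.9, 26.4, 18.7 and 24.5 in the knockdown samples, and its groups did not overlap. It fell by 1.15 on the log2 scale (SE 0.26, adjusted p = 0.0113). The lncRNA 4930524L23Rik, which RefSeq names Flicr and which lies at Foxp3, had 7.57 to 47.9 (median 33.9) in the control samples and 11.2, 8.45, 5.86, 10.1 and 11.3 in the knockdown samples. Control 3 was again as low as the knockdown samples. It fell by 1.70 on the log2 scale (SE 0.43, adjusted p = 0.0146). E130114P18Rik had 109 to 385 (median 293) in the control samples and 72.1, 97.8, 116, 178 and 138 in the knockdown samples, with controls 3 and 23 inside the knockdown range, and it fell by 1.15 on the log2 scale (SE 0.33, adjusted p = 0.0197). The table gives it a span of 210174 bases, against 16717 in RefSeq. Reads of other sequence may thus have been counted to it, which was not tested.

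A630009H07Rik was counted with 66 reads over the controls and 3 over the knockdown samples, so that controls were 18.9-fold higher in normalized counts (95% exact interval 6.20 to 94.1, counting error only). Its groups did not overlap (adjusted p = 0.00907). Without knockdown 8, which held most of the reads, the fitted log2 fold change was -4.91 in place of -3.90. Gm4632 had 20 reads over the controls and 1 over the knockdown samples, in knockdown 4, a 17.2-fold difference (interval 2.75 to 713, adjusted p = 0.0199). Without that sample the gene was at 0 in the group.

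Genes found in 1 group alone were D930028M14Rik, Gm19590, Gm11166 and Gm10505. D930028M14Rik, antisense within the transcription factor gene Pou2f2, had 0 to 13.5 (median 8.74) in the controls and 0 in every knockdown sample. With 50 control reads and a floor of 3 reads over the knockdown group, it was at least 14.3-fold lower (adjusted p = 0.0125). Control 3 was also at 0, so the groups touched. Gm19590 was at least 4.02-fold lower by the same floor. Gm11166 and Gm10505 were at 0 in every control and at least 5.81-fold and 6.97-fold higher, with 15 and 18 reads over the knockdown samples. Both were at 0 in knockdown 4, and Gm10505 also in knockdown 10. DESeq2 called neither (adjusted p = 0.0597 and 0.0803), and Gm10505 was not called without knockdown 6 or 22 (0.0590 and 0.0578). Over all samples, 20 of the 102 genes were at 0 at least once. With these 4 genes at their bounds, which lie on the same side of the median as the fitted values, the median log2 fold change of the 102 was 0.39.

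The higher genes of lowest p-value included A230009B12Rik, a lncRNA, with 95.4 to 184 (median 141) in the control samples and 223, 310.3, 220.2, 252 and 254 in the knockdown samples. Its groups did not overlap and it rose by 0.84 on the log2 scale (SE 0.19, adjusted p = 0.0108). The lncRNA 9530028C05 had 122 to 507 (median 361) in the control samples and 699, 799.6, 789, 382 and 944 in the knockdown samples, with knockdown 10 alone inside the control range. It rose by 1.14 on the log2 scale (SE 0.31, adjusted p = 0.0179). The lncRNA 4930512H18Rik has a span of 73829 bases in the table, against 12033 in RefSeq, so it may hold reads of other sequence (not tested). It had 0.969 to 15.1 (median 6.82) in the control samples and 18.9, 33.8, 29.3, 16.8 and 27.1 in the knockdown samples without overlap. The gene rose by 1.85 on the log2 scale (SE 0.51, adjusted p = 0.0183). No overlap was seen either for 2310006M14Rik, protein-coding in RefSeq, with 12.1 to 30.1 (median 26.8) in the control samples and 49.7, 55.7, 84.3, 38.6 and 40 in the knockdown samples. It rose by 1.16 on the log2 scale (SE 0.31, adjusted p = 0.0172).

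The pseudogene LOC100418252 had 2.52 to 16.7 (median 4.52) in the control samples and 37.8, 16.9, 23.4, 10.1 and 22 in the knockdown samples, with control 3 inside the knockdown range, and it rose by 1.92 on the log2 scale (SE 0.51, adjusted p = 0.0168). The table gives it a span of 98719 bases, against 621 in RefSeq, so reads of other sequence may have been counted to it, which was not tested. Gm10731 was counted with 2 reads over the controls, both in control 5, and 25 over the knockdown samples, a ratio of 14.5 (95% exact interval 3.62 to 127, counting error only, adjusted p = 0.0172). Without control 5 the gene was at 0 in the group. It lies within Gm2011 on the opposite strand. Gm2011 had 13.1 to 26.1 (median 19.3) in the control samples and 8.87, 15.4, 13.5, 7.98 and 12.4 in the knockdown samples (log2 fold change -0.71, SE 0.30, adjusted p = 0.047). That call was lost under TMM (adjusted p = 0.105), DESeq2 size factors (0.0948), DESeq2 (0.0509) and the block by sample number (0.0556), and on leaving out any sample except control 23 (0.0528 to 0.0974).

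Rows of a repeated gene family on chromosome 14 had negative fold changes together. They were Gm8348 (log2 fold change -0.94, SE 0.31, adjusted p = 0.0267), Gm3002 (log2 fold change -0.66, SE 0.26, adjusted p = 0.041), LOC623078 described above, and 2610042L04Rik, which had 36.3 to 80.8 (median 44.2) in the control samples and 34.1, 29.8, 43.9, 36.2 and 24.6 in the knockdown samples and was not called (log2 fold change -0.58, SE 0.29, adjusted p = 0.0707). The groups of Gm8348 did not overlap, but they did under TMM, and its call was lost without knockdown 6 or 22 (adjusted p = 0.0504 and 0.0519). The call of Gm3002 was lost under TMM (0.0945), DESeq2 size factors (0.0845) and the block by sample number (0.0539), and without any 1 of controls 5 and 23 or knockdown 4, 6, 10 and 22 (0.0674 to 0.0827). These rows lie close together between 3518338 and 4619865 on the table's chromosome 14. Copies of a family can share reads, so the 4 are uncertain as separate measurements, and they were picked out after their values were seen.

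Non-coding genes were next set beside the coding genes of the table that overlap them or lie within 5000 bases. There were 14 such pairs for 13 of the 102 genes, of which Btbd19, A930033H14Rik, 2610042L04Rik and A430057M04Rik are protein-coding in RefSeq, and the fold changes had the same sign in 13. Of the pairs 11 overlapped, 9 of them on opposite strands and 2 on the same strand. Whether the counting used strand is not given in the sources used here, and without it reads from overlapping genes cannot be told apart. Some overlaps rest on spans that are far longer in the table than in RefSeq, as for 2310002F09Rik and for 2610042L04Rik (318642 bases against 20810). The shared sign is thus a description of rows that may share reads.

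LOC100502604 overlaps Dab1, an adaptor of the reelin pathway, on the same strand. The table gives LOC100502604 a span of 1060718 bases, of which 312823 overlap Dab1, and it was not found in RefSeq. Reads of Dab1 may thus have been counted to it, which was not tested. The values of LOC100502604 were 28.8 to 131 (median 88.8) in the control samples and 30.3, 15.6, 51.1, 46.9 and 44.1 in the knockdown samples, and control 3 lay among the knockdown samples. It fell by 1.15 on the log2 scale (SE 0.39, adjusted p = 0.0274), a call lost without knockdown 4 or 6 (adjusted p = 0.0505 and 0.0504), beside Dab1 (log2 fold change -1.09, SE 0.28, adjusted p = 0.0157). A930003O13Rik overlaps Lhfpl3 on the opposite strand and had 37 to 89.4 (median 58) in the control samples and 140.0, 85.8, 207, 119 and 86.4 in the knockdown samples. Knockdown 6 and 22 lay just under the highest control. It rose by 1.10 on the log2 scale (SE 0.29, adjusted p = 0.0167), beside Lhfpl3 (log2 fold change 0.87, SE 0.29, adjusted p = 0.0277). The start of Gm6548 lies 6 bases from Eif2ak2, the gene of the kinase PKR that is activated by double-stranded RNA, on the same strand. Eif2ak2 was higher as well (log2 fold change 0.72, SE 0.26, adjusted p = 0.0346).

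By its deposited coordinates, 2310002F09Rik overlaps the serine protease genes Klk9 and Klk8. That rests on a span of 102737 bases, against 10471 in RefSeq, where no overlap with either gene was found on GRCm38. Its values were 0 to 15.6 (median 3.7) in the control samples and 25.7, 12.3, 5.99, 6.07 and 21 in the knockdown samples, and it was not called (log2 fold change 1.64, SE 0.73, adjusted p = 0.0524), while without control 3 its log2 fold change was 2.30 (adjusted p = 0.0146). Klk9 (log2 fold change 2.05, SE 0.51, adjusted p = 0.0146) and Klk8 (log2 fold change 1.61, SE 0.41, adjusted p = 0.015) were called higher. A730085A09Rik (Kank4os in RefSeq), antisense to Kank4, was counted with 8 reads over the controls and 2.5 over the knockdown samples and was not called (ratio 0.363, 95% exact interval 0.0301 to 1.46, counting error only, adjusted p = 0.103). Kank4 itself was called lower (adjusted p = 0.0185) and had reads in knockdown 22 alone among the knockdown samples. The pair of opposite sign was 3300002A11Rik, antisense within Foxn3. It had 3.03 to 15.1 (median 7.53) in the control samples and 18.9, 10.9, 23.4, 21 and 14.9 in the knockdown samples and rose by 1.11 on the log2 scale (SE 0.41, adjusted p = 0.0344), a call lost without any 1 of controls 5 and 7 or knockdown 4, 8 and 10 (adjusted p = 0.0551 to 0.0642). Foxn3, a forkhead transcription factor, fell (log2 fold change -0.49, SE 0.11, adjusted p = 0.00955).

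**Figure D4:**
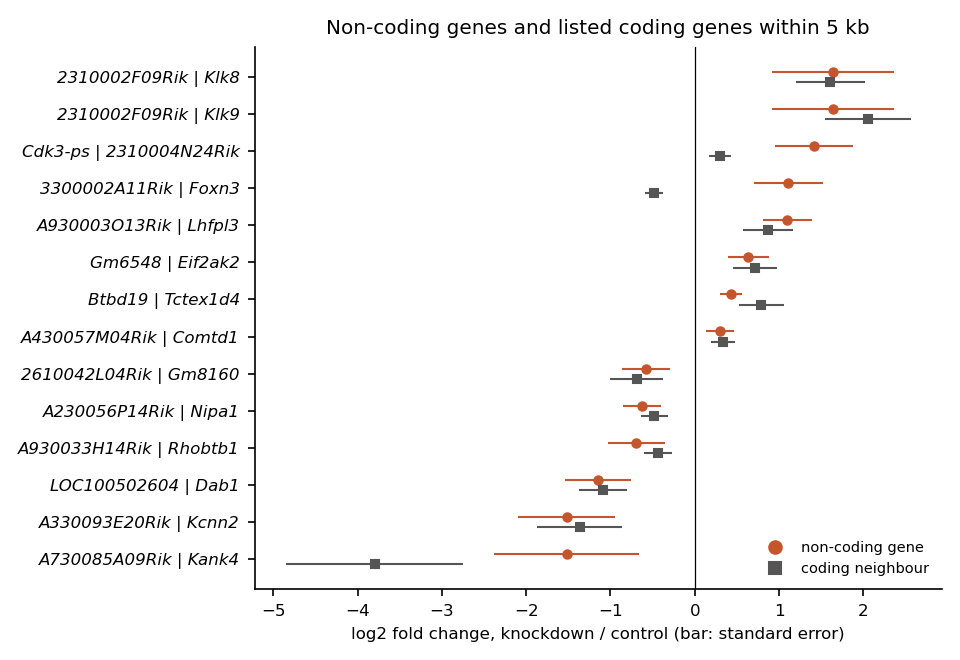
Log2 fold changes (knockdown over control, bars are standard errors) of 13 non-coding genes (circles) and the listed coding genes within 5000 bases (squares), 1 pair a line. Of the 14 pairs 13 have the same sign, and 3300002A11Rik with Foxn3 is the exception.

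On GRCm38, 74 genes had a RefSeq position and a non-coding class, and 34 of them overlapped a GENCODE protein-coding gene, 28 on the opposite strand and 7 on the same strand (a gene can do both). For 5 of them the overlapped coding gene was in the table. The starts of 6 lay within 1000 bases of a coding gene's start in divergent orientation, among them Tug1 with Morc2a (377 bases) and 2610017I09Rik with Pou3f3. None of these 6 coding partners was in the table.

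Of 54 genes that process or modify non-coding RNA, 6 were in the table, of which 3 were called higher (beside 32.2% of all listed genes) and 1 lower (beside 47.3%). The lower call was lost under TMM and DESeq2 size factors. Adar, the adenosine deaminase that edits double-stranded RNA, had normalized counts of 1751 to 3852 in the controls and 3696, 3926, 4023, 3031 and 4481 in the knockdown samples, and it rose by 0.56 on the log2 scale (SE 0.19, adjusted p = 0.0279). Without knockdown 22 adjusted p was 0.0542. Pnpt1, a mitochondrial polynucleotide phosphorylase, had 682 to 1234 and 1380.4, 1279.9, 1367, 1265 and 1458 without overlap, and it rose by 0.47 on the log2 scale (SE 0.15, adjusted p = 0.0258). Dgcr8, the partner of Drosha in microRNA processing, rose by 0.33 on the log2 scale (SE 0.12, adjusted p = 0.0339), a call lost without any 1 of controls 7 and 21 or knockdown 8, 10 and 22 (adjusted p = 0.0574 to 0.0672).

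Mettl14, a subunit of the RNA adenosine methylation writer, had 555 to 768 in the controls and 493, 526, 326, 513 and 452 in the knockdown samples without overlap. It fell by 0.42 on the log2 scale (SE 0.14, adjusted p = 0.0273), but adjusted p was 0.0517 without control 7 and 0.0878 under TMM. Drosha (log2 fold change -0.22, SE 0.10, adjusted p = 0.0534) and Upf3a, a factor of nonsense-mediated decay (log2 fold change 0.29, SE 0.13, adjusted p = 0.0552), were not called. Without control 3 both were (adjusted p = 0.0306 and 0.0191), and Upf3a also without knockdown 8 (0.0447). Upf3a was called higher under TMM (0.0278), DESeq2 size factors (0.0307) and DESeq2 (0.0453), and Drosha lower under DESeq2 (0.0364) and among genes with a highest count of at least 200 (0.0498).

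The targeted subunits were looked at as a check of the labels. Nfyc had 804 to 1178 in the controls and 927, 792, 845, 569 and 696 in the knockdown samples, overlapping, and was not called (log2 fold change -0.32, SE 0.14, adjusted p = 0.0531). Without control 23 or knockdown 4 adjusted p was 0.0496 or 0.0449, and it was called lower under the block by sample number (0.0391), DESeq2 (0.0467) and DESeq2 with the astrocyte score described further on (0.0253). Nfya and Nfyb were not analysed here. The libraries are therefore called by their labels.

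The marker genes of cells other than neurons that were in the table were all called lower, beside 47.3% of all listed genes. They were listed because they differed between the groups, and markers outside the table were not looked at. Of 14 astrocyte markers the table held 6, each called lower. By counts that are not divided by length, the highest mean in each group was that of the glutamate transporter gene Slc1a3, with Aldoc above it in controls 9 and 21. Slc1a3 was lower in the knockdown samples (log2 fold change -1.03, SE 0.24, adjusted p = 0.0122). Their summed normalized counts were 30956, 66769, 57336, 51003, 89918 and 35286 in controls 3, 5, 7, 9, 21 and 23, and 20009.9, 21396, 26954, 32322 and 36392 in the knockdown samples. Controls 3 and 23 were the controls with the lowest astrocyte sums. Vascular markers in the table were lower too (7 of 9), as were 1 of 15 oligodendrocyte (Ugt8a) and 1 of 13 microglia markers (P2ry12). Under TMM the calls of Glul, P2ry12, Pecam1 and Tek were lost (adjusted p = 0.208, 0.0954, 0.116 and 0.0661). The vascular sums were 6499 to 11195 in the controls and 4335 to 7443 in the knockdown samples, those of Ugt8a 10376 to 22632 and 9565 to 11279, and those of P2ry12 13199 to 26580.4 and 12117 to 15252. None of these listed markers was at 0 in any sample. None of 21 neuronal markers was in the table, so the neuronal identity of the sorted cells could not be checked here. In bulk RNA, fewer cells of a type and less RNA per cell cannot be told apart.

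The mean log2 level of the 6 astrocyte markers was then added to the fit as a term. No non-coding gene was called with it by edgeR, where 27 of 102 had an unadjusted p under 0.05 (26.5%, beside 31.9% of all listed genes), and DESeq2 with the same term called 4 higher and 2 lower. Of all listed genes 48 higher and 20 lower calls were left in edgeR. The sign was kept in 72 of the 73 called non-coding genes. The exception was 2610017I09Rik, whose log2 fold change went from -1.19 to 0.068. Of the 29 called genes of the naming rule, the fold of 9 moved by over 1.5 times with the term, 7 nearer to no change and 2 farther from it. They include 2610017I09Rik and also D930028M14Rik, which was at 0 in every knockdown sample and whose fitted fold depends on the prior count. In log2 fold change E130114P18Rik went from -1.15 to -0.20, LOC100502604 from -1.15 to -0.25, H19 from 3.22 to 1.89, Gm8828 from 4.34 to 2.56 and LOC100418252 from 1.92 to 1.02. Gm10731 went from 3.35 to 4.42 and 4930512H18Rik from 1.85 to 2.65. That of 4933431E20Rik went from -0.56 to -0.05, while that of Tug1 was -0.37 without and -0.38 with the term. The score was -0.56, 0.98, 0.74, 0.49, 1.37 and -0.07 in controls 3, 5, 7, 9, 21 and 23 and -1.16, -0.92, -0.52, -0.24 and -0.10 in the knockdown samples. The score moves with the groups, so that it and the knockdown cannot be fully told apart in 11 samples. Its 6 genes were in the table because they differed between the groups. A loss of calls with the term was therefore likely from the outset, and no conclusion is drawn from it.

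**Figure D5:**
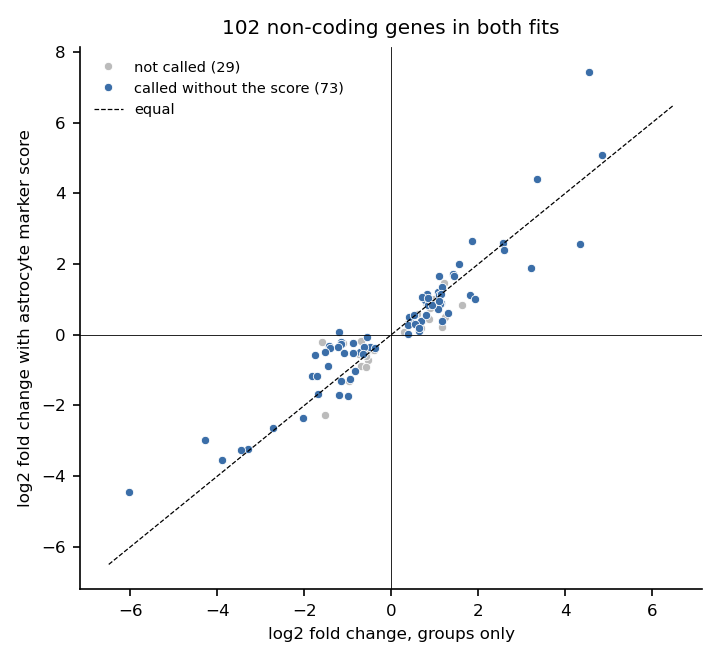
Log2 fold change of the 102 non-coding genes with the astrocyte marker score in the fit (vertical axis) against that without it (horizontal axis), with genes called without the score in blue (73) and the line of equal values dashed. Signs agree for 72 of the 73, and 2610017I09Rik sits just above 0 at -1.19.

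Interferon response genes also differed between the groups, with 14 of 15 in the table and 13 called higher (median log2 fold change 1.03), beside 32.2% of all listed genes. By counts that are not divided by length, the highest mean was that of Cxcl10 in the controls (5802 normalized counts) and that of Ifit3 in the knockdown samples (12099.8 normalized counts). Their summed normalized counts were 16064 to 78789.8 in the controls and 55396 to 99576 in the knockdown samples, with control 3 highest among the controls. Their part in the changes of the non-coding genes was not tested. Non-coding genes took 0.854% to 1.06% of the listed counts in the controls and 0.961% to 1.25% in the knockdown samples. The 1.25% was that of knockdown 8, where Gm8828 alone had 5532 reads, and without this gene the knockdown samples ran from 0.926% to 1.01% and the controls from 0.845% to 1.04%.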

How the data were processed

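RNA was measured in EmGFP-positive striatal cells of 6 control and 5 knockdown samples. The authors amplified cDNA with the SMARTer Ultra Low kit, made Nextera XT libraries, sequenced single reads of 50 cycles and analysed them in Strand NGS. The submitters' processing notes name the mm9 build, while aligner, annotation and counting options are not given in the sources used here. The deposited estimated counts per gene are partly fractional (53.8% of values of non-coding genes were whole within 0.001), and the deposited log2 columns hold the log2 of the count over 1 factor per sample, with the median of each gene set to 0. It also holds the authors' p-values and fold changes, which were not used. Only genes with a p-value under 0.05 are listed.

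Counts were rounded to whole numbers. The authors' factor per sample was recovered from the log2 columns over 1247 genes (all samples above 50 counts) and used as the library scaling. edgeR 4.0.16 (R 4.3.3; glmQLFit, glmQLFTest) compared the groups with no covariate, with Benjamini-Hochberg adjustment over 1767 genes and a threshold of 0.05. Single genes were also tested by a two-sided exact permutation test of log2(normalized count + 0.5). The fitting was tested on simulated data. Library pairs of 1 group differed by far more than counting error (chi-square per degree of freedom 22.0 to 177), so none was counted as a duplicate.

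Genes named are the 8 called with the smallest p in each direction, the 8 with the highest mean count, those on lists of known non-coding RNAs, all small RNA genes, the 6 closest to a listed coding gene, and all listed genes of the NF-Y and RNA processing lists; others are named where a count of 5 or fewer or a pair called for it, after their values were seen. The members and lists were chosen with earlier results of these data known. TMM, DESeq2 1.42.0 and its size factors, a count filter, a block by sample number, an astrocyte score, other thresholds and leaving out each sample were tried as alternatives. Intervals and floors cover counting error only. Sequences were taken from RefSeq GRCm38.p6 and GENCODE M21, and no coordinates were converted between builds.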

Additional observations from a re-analysis of the deposited data

Results flagged for a closer look

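Among the named non-coding genes, 68 groups of 5 or 6 samples were examined for a sample far from the others, and 9 were found. How many groups chance alone would mark at such counts was not measured. In the controls, Snord89 stood at 1.78 normalized counts in control 21 and at 0 in the other controls, and Gm10731 at 2.15 in control 5 and at 0 elsewhere. Snhg3 was at 187 in control 21, below the next value of 283. Control 3 was highest for Snora7a (9.08), 2310002F09Rik (15.6) and LOC100418252 (16.7), and control 23 for H19 (36.8, with the next control at 11.6). In the knockdown samples, Gm8828 stood at 6479.7 in knockdown 8 above a next value of 1801, and Gm4632 at 1.18 in knockdown 4 and at 0 in the others. Several of these rest on 1 or 2 reads. The cause was not tested for any of them.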

How the results depend on the processing

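No named non-coding gene changed sign when a single sample was left out, under TMM, DESeq2 size factors, DESeq2 or the block by sample number. TMM ended the calls of Tug1, 4933431E20Rik, Gm2011 and Gm3002, DESeq2 size factors those of Tug1, Gm2011 and Gm3002, the block those of Snhg3, Gm8828, Gm2011, Gm3002 and LOC100503777, and DESeq2 those of Snord89, Gm2011, Gm11166 and Gm10505. Of 29 called genes of the naming rule 19 kept their call without any 1 sample. Of the further genes described, Gm2011, Gm3002, Gm8348, LOC100503777 and Gm10505 lost theirs without at least 1 sample. Leaving out each sample in turn gave 21 to 36 non-coding genes called higher and 13 to 32 lower, 355 to 568 listed genes higher and 493 to 790 lower, and 1 to 4 RNA processing genes higher and 0 to 2 lower.

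TMM gave 20 non-coding genes lower and 377 listed genes lower, DESeq2 size factors 413 listed genes lower, and both called 0 RNA processing genes lower. DESeq2 and a highest count of at least 200 each called 2 RNA processing genes lower, and that filter left 14 non-coding genes higher and 9 lower because fewer were tested. Of the 33 non-coding genes with whole numbers in every sample 16 were called higher (48.5%) and 12 lower (36.4%), beside 38.2% and 43.4% of the 442 such listed genes. The astrocyte score in edgeR left 0 and 0 non-coding, 48 and 20 listed, and 0 and 0 RNA processing genes called higher and lower. DESeq2 with that score, chosen after seeing the data, left 4 and 2, 157 and 104, and 0 and 0. The log2 fold change of 2610017I09Rik turned from -1.19 to 0.0683 in edgeR and 0.0695 in DESeq2 with the score. Apart from fewer genes being tested, the cause was not tested.

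No paired analysis was run, because the groups share no replicate number and the labels name no pairs. A pairing of neighbouring sample numbers was not tested. With samples 3 to 10 alone (4 against 4) the smallest possible exact permutation p is 0.029. Reads under the floor of 3 counts, and the missing depth of whole libraries, limit the genes of fewest counts.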
